A study of Mus musculus with 6 samples.

Results

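The ion channel genes of the adult mouse heart were compared between Tw2+ and Tw2- cells that are not cardiomyocytes. The set held every row of the count table whose symbol belongs to the Kcn, Scn, Cacna, Cacnb, Cacng, Trpc, Trpv, Trpm, Clcn, P2rx or Piezo series, apart from Kcnj8. It had 177 genes, of which 76 reached 10 or more counts in 3 or more of the 6 libraries and are described here. Of the 101 genes under that minimum, 18 had no count in any library. Scn4b was just inside it, with 10, 2 and 2 counts in Tw2+ cells, against 13, 11 and 5 counts in Tw2- cells. Kcna1, a delayed rectifier subunit, was just outside, with 4, 8 and 1 counts in Tw2+ cells, against 123, 28 and 3 counts in Tw2- cells. A gene that reached the minimum through 1 group alone was more likely to differ between the groups, so the counts of genes past it are descriptions. Trpm2, Kcnn4, Cacna1e, Kcnq1 and Kcnj5, called below, reached it through the Tw2- cells alone, with fewer than 10 counts in every Tw2+ library. Their p-values and ranks carry the same limit.

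The Tw2+ libraries came from tdTomato-positive cells and the Tw2- libraries from tdTomato-negative cells of the same kind of mouse, with 3 biological replicates in each group. Both groups carry the Tw2-CreERT2 and R26-tdTO alleles, and both come from mice given TMX (tamoxifen) at 8 weeks of age, so no group is free of Cre, reporter or drug. CreERT2 is a recombinase that acts while tamoxifen is present, and it was expressed under the Twist2 gene's control, so tdTomato marks cells that made the driver then and the cells that descend from them. Hearts were taken apart by Langendorff perfusion 10 days after the first dose, from mice of 9 weeks. Cardiomyocytes were separated off by gravity and a BSA gradient, and the rest were sorted on tdTomato and on Mitoview633, a mitochondrial dye. How many hearts went into a library was not given in the sources used here.

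An ion channel is a membrane protein that lets selected ions pass down their gradient. The pore is built from alpha subunits, and auxiliary subunits change how much of the channel reaches the surface and how it gates. Potassium channels set the resting potential. Sodium and calcium channels of the voltage-gated kind carry the action potential of cardiomyocytes, while TRP, P2X and Piezo channels open to chemical, thermal, ATP or mechanical signals in many cell types. Cardiac fibroblasts are not excitable but carry potassium currents and stretch-activated channels. Macrophages use channels for migration, phagocytosis and release of cytokines.

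Library totals ran between 11746696 and 16447098 counts. Adjusted as described next, they ran between 9934997 and 18625030, so that 3 counts in 1 library equal between 0.161 and 0.302 CPM. CPM is the unit for counts scaled to a common library total. All CPM values here use library totals adjusted by edgeR's trimmed mean of M-values (TMM), and each group's values are listed in the order replicate 2, replicate 3 and the library that has no number in the table. Markers of fibroblasts summed to between 62789 and 75113 CPM in Tw2+ cells and between 38267 and 56309 CPM in Tw2- cells. Tw2- cells held far more leukocyte RNA: 14 macrophage and monocyte markers summed to between 143 and 336 CPM in Tw2+ cells and between 2772 and 6019 CPM in Tw2- cells, and all 14 passed the test as lower. The 6 granulocyte markers summed to between 2.42 and 2.85 CPM in Tw2+ cells, with Retnlg and Cxcr2 at 0, against between 153 and 320 CPM in Tw2- cells. The B cell list summed to between 1.31 and 1.54 CPM in Tw2+ cells, with Blk and Pax5 at 0, against between 19.5 and 25.1 CPM in Tw2- cells. The 14 endothelial markers summed to between 682 and 1345 CPM in Tw2+ cells and between 1064 and 2810 CPM in Tw2- cells, with 4 called lower. Markers of cardiomyocytes, the cells separated off before the sort, were present in both groups, at between 166 and 536 CPM in Tw2+ cells and between 859.5 and 1619 CPM in Tw2- cells, and all 14 were called lower. Smooth muscle markers summed to between 185 and 204 CPM in Tw2+ cells and between 219 and 234 CPM in Tw2- cells, with 3 of 6 tested called lower. Pericyte markers summed to between 568 and 684 CPM in Tw2+ cells and between 412 and 779 CPM in Tw2- cells, with 1 of 9 called higher and 1 lower and a median log2 fold change of -0.84. Epicardial markers summed to between 170.5 and 275 CPM in Tw2+ cells and between 145 and 190.0 CPM in Tw2- cells, with 0 of 8 called by edgeR, 1 at an unadjusted p under 0.05, and 1 called by each of DESeq2 and limma-voom. Schwann cell markers summed to between 3.83 and 10.1 CPM in Tw2+ cells and between 11.5 and 31.8 CPM in Tw2- cells, with 1 of 2 tested called lower. The part of these other cell types in the channel results was not tested, and in bulk samples fewer cells of a type and less RNA per cell cannot be told apart.

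**Figure D1:**
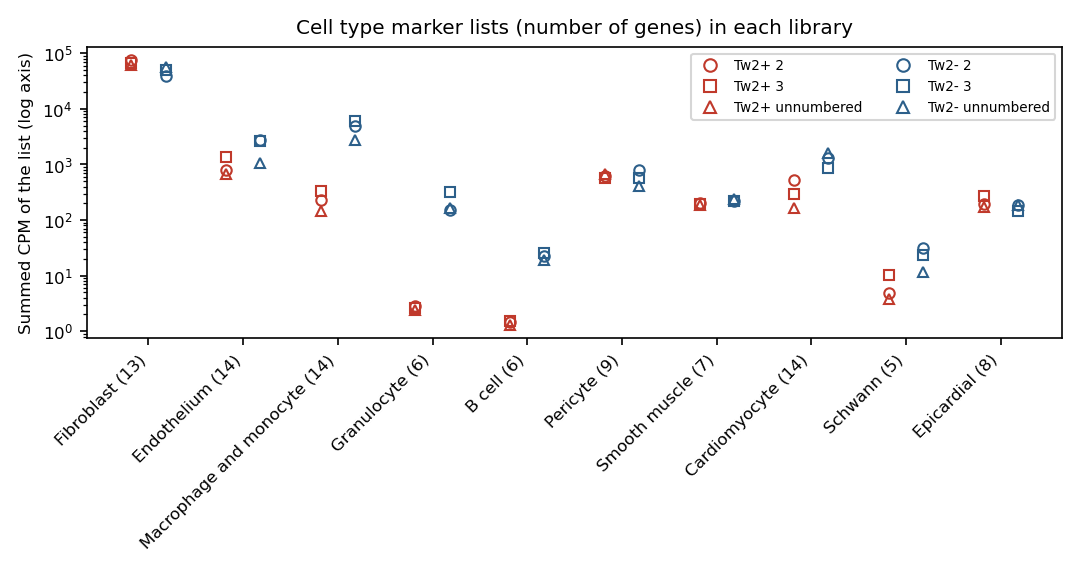
Summed CPM (log axis) of each marker list in each library, with Tw2+ libraries left of Tw2- libraries; each point is 1 library. The macrophage and monocyte sums of Tw2+ cells, between 143 and 336 CPM, all lie under those of Tw2- cells, between 2772 and 6019 CPM, while fibroblast sums are higher in every Tw2+ library.

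The 76 genes of the channel set summed to 2131, 2098 and 2284 CPM in Tw2+ cells and to 2034, 1946 and 1981 CPM in Tw2- cells. On this TMM scale every Tw2+ library lay a little above every Tw2- library. The TMM factors were 0.872, 1.01 and 0.846 in Tw2+ libraries and 1.095, 1.132 and 1.083 in Tw2- libraries. The sums are therefore not shares of each library's total, and the order of the groups depends on the scaling. Per kilobase of exon, 5 genes made up 52.3% of the summed level, namely Scn7a, Kcne4, Piezo1, Clcn4-2 and Trpm7. Scn7a, which encodes the sodium-sensing channel Nax rather than a voltage-gated one, was the most abundant, at a mean of 62.5 CPM per kb over the 6 libraries. Scn7a took 14.9%, 25.2% and 14.0% of the summed level per kb in Tw2+ cells and 15.5%, 23.5% and 25.7% in Tw2- cells. Kcne4, an auxiliary subunit that inhibits several voltage-gated potassium channels, took 22.9%, 11.5% and 22.9% in Tw2+ cells and 8.55%, 6.86% and 10.3% in Tw2- cells. Kcne4 was thus the most abundant channel gene per kb in 2 of 3 Tw2+ libraries, while Scn7a was in all 3 Tw2- libraries. Replicate 3 of the Tw2+ group kept Scn7a first.

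**Figure D2:**
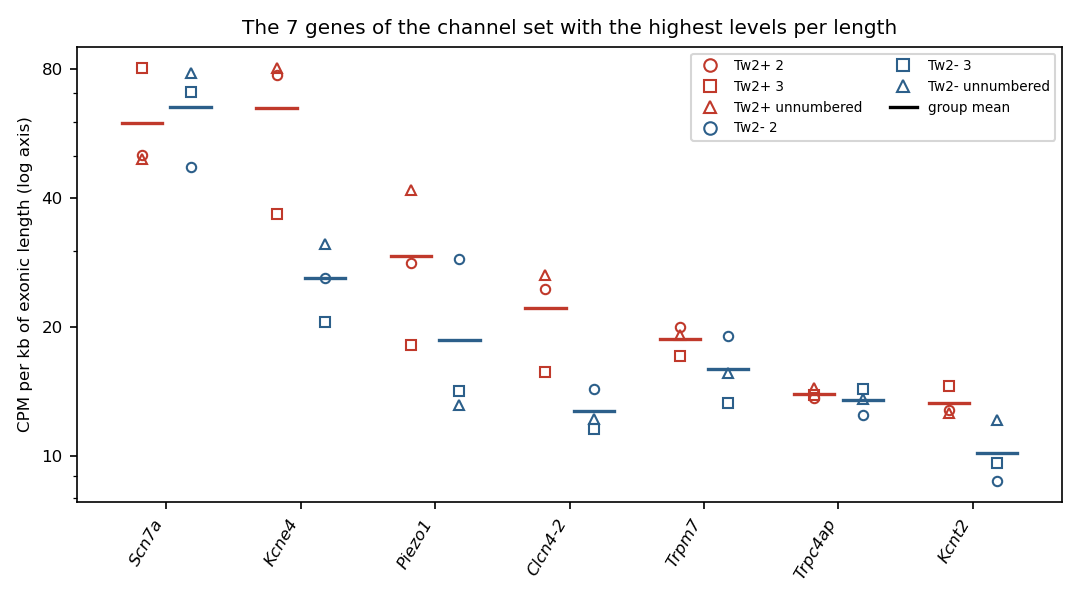
Level in CPM per kb of exon (log axis) of the 7 genes of the set with the highest level per kb in each of the 6 libraries, ordered by the mean of 6, with Tw2+ left of Tw2-; colour tells the group, marker shape the library, and the bar is the group mean. Scn7a has 59.9 CPM per kb in Tw2+ cells and 65.2 CPM per kb in Tw2- cells on average, and Kcne4 has 64.7 CPM per kb in Tw2+ cells and 26.0 CPM per kb in Tw2- cells.

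Of the 75 channel genes that could be tested, 16 passed edgeR's quasi-likelihood test at an adjusted p under 0.05 (Benjamini-Hochberg over 13180 genes), which is 21.3% against 18.2% of all genes. Kcne4, Kcnj14 and Clcn4-2 were higher in Tw2+ cells, 4.0% of the genes tested against 7.41% of all genes. The 13 that were lower made up 17.3%, against 10.8% of all genes, and 12 of them were at least 2-fold lower. The shares in either direction together are close to that of all genes, so the number of channel genes called is not a result about channels. In all 16 called genes the libraries of the groups did not overlap. Choosing genes by a small p from 3 libraries per group favours this, so it is a description and not further support. Over all 75 genes, the Tw2+ values were wholly above the Tw2- values in 10 (13.3%, against 18.2% of all genes) and wholly under them in 21 (28.0%, against 19.2% of all genes). The 59 others did not pass the test, 13 of them with an unadjusted p under 0.05. The median log2 fold change was -0.14 over the channel genes and 0.00 over all genes tested.

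The calls rested on single libraries to an unequal degree. Without Tw2+ replicate 3, 6 channel genes were higher and 19 lower, and 15 of the 16 stood among these 25. The share of all genes called was then 42.2%. Without Tw2+ replicate 2 the counts were 0 higher and 8 lower (7.47% of all genes called), and without the unnumbered Tw2+ library 0 and 7 (8.13% of all genes called). Leaving out Tw2- replicate 2 gave 0 and 7 (9.38% of all genes called), Tw2- replicate 3 gave 0 and 6 (6.79% of all genes called) and the unnumbered Tw2- library gave 1 and 11 (12.2% of all genes called). DESeq2 on all 6 libraries called 6 higher and 15 lower, against 25.8% of all genes in either direction. The 6 genes called in every fit that left out 1 library were Kcnn4, Trpm2, Kcnab2, Trpv2, Kcnk13 and P2rx7.

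**Figure D3:**
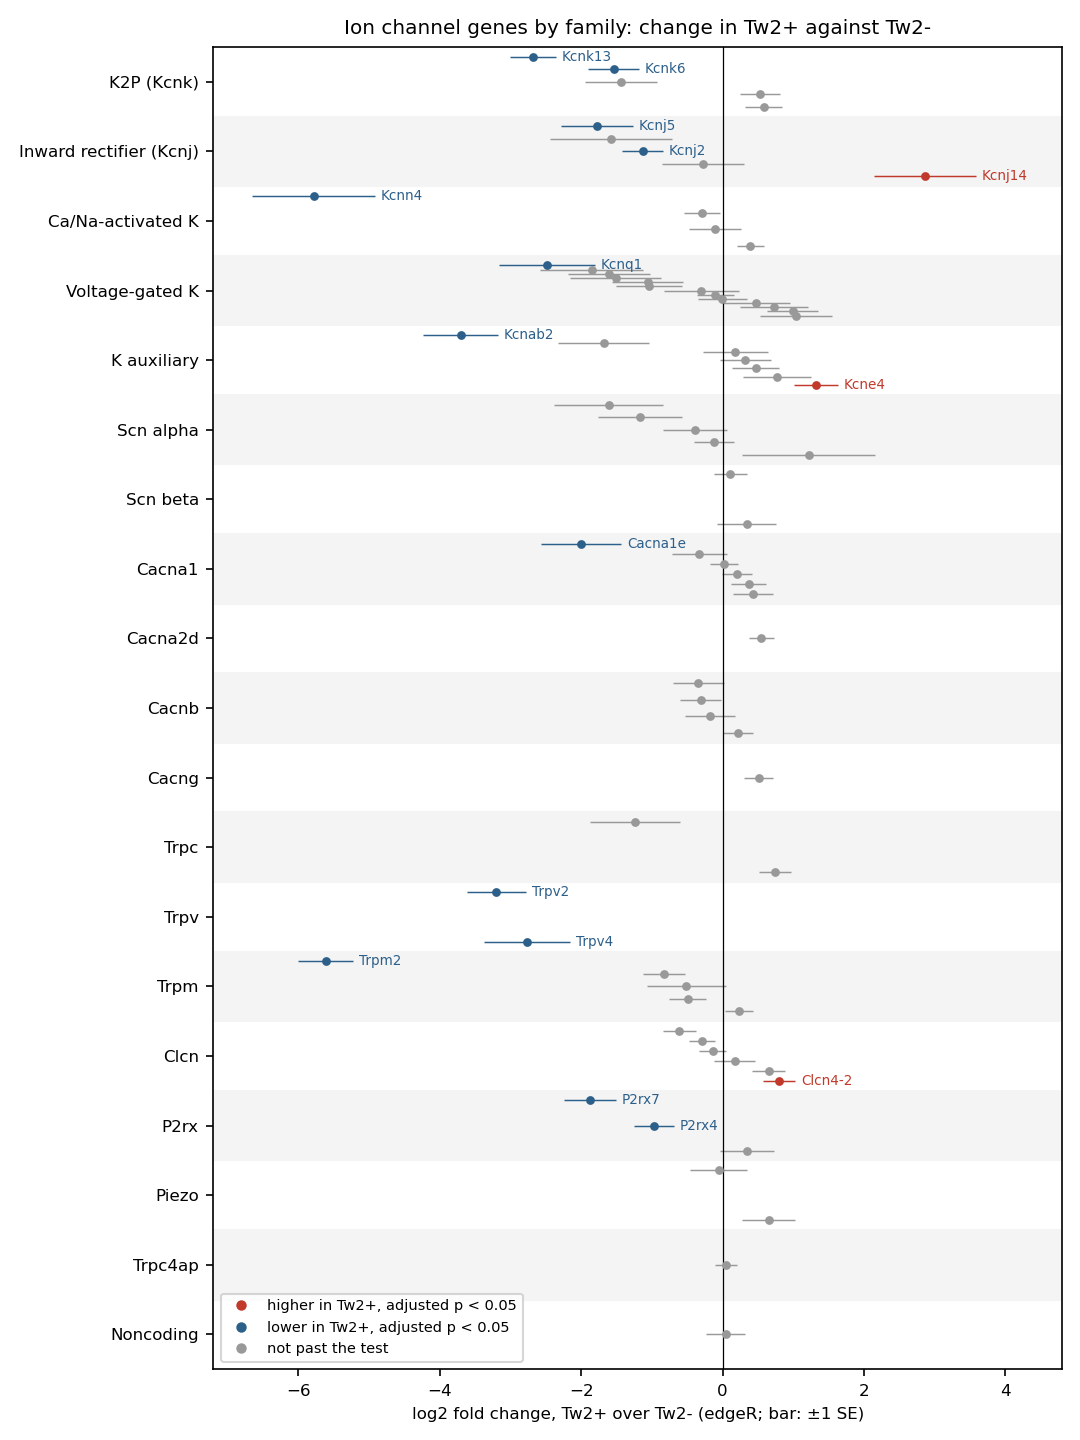
Log2 fold change (Tw2+ over Tw2-) with its standard error for the channel genes tested, grouped by family; coloured points passed the test at an adjusted p under 0.05. Kcnj14, Kcne4 and Clcn4-2 lie to the right at 2.86, 1.32 and 0.80, and Kcnn4 and Trpm2 lie farthest to the left at -5.78 and -5.61.

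Among the auxiliary subunits of potassium channels, Kcne4 (ENSMUSG00000047330, GRCm38 chr1:78816758-78820028, + strand) was higher in Tw2+ cells and Kcnab2 was lower. Kcne4 had 205, 97.2 and 214 CPM in Tw2+ cells, against 69.1, 54.7 and 83.2 CPM in Tw2- cells. Every Tw2+ library lay above every Tw2- library, and Tw2+ replicate 3 came nearest to the Tw2- cells. Kcne4 averaged 172 ± 64.9 CPM in Tw2+ cells and 69.0 ± 14.3 CPM in Tw2- cells (SD, n = 3 each), a log2 fold change of 1.32 ± 0.31 (SE; edgeR adjusted p = 0.0233). The call held without Tw2+ replicate 3 (1.6) and without the unnumbered Tw2- library (1.41) and was lost without any of the other 4 libraries, with values between 1.12 and 1.28. Scaled to the 13 fibroblast markers, of which 2 were called higher in Tw2+ cells and whose median log2 fold change was 0.66, the difference was 0.59 and did not pass (edgeR adjusted p = 0.103).

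Kcnab2 (ENSMUSG00000028931, chr4:152390742-152477871, - strand), a cytoplasmic beta subunit of Shaker-type channels, had 1.21, 2.11 and 0.503 CPM in Tw2+ cells, against 19.8, 22.1 and 8.87 CPM in Tw2- cells. The groups lay well apart, with a log2 fold change of -3.70 ± 0.53 (SE; edgeR adjusted p = 0.00204) that passed whichever library was left out. The second most abundant auxiliary subunit was Kcnip3, which encodes a calcium-binding protein that also acts as a transcriptional repressor. Kcnip3 had 13.2, 32.7 and 11.5 CPM in Tw2+ cells, against 9.04, 19.6 and 22.0 CPM in Tw2- cells, and the libraries of both groups were mixed (log2 fold change 0.18, edgeR adjusted p = 0.797). The other 4, Kcne1l, Kcnip1, Kcnip2 and Kcnab1, did not pass, with log2 fold changes between -1.68 and 0.77.

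Inwardly rectifying potassium channels (Kcnj) hold the membrane near the potassium equilibrium. Kcnj14 (ENSMUSG00000058743, chr7:45816460-45824782, - strand) was higher in Tw2+ cells, on few counts: 32, 13 and 52 counts in Tw2+ cells, against 10, 9 and 1 counts in Tw2- cells. That is 2.76, 1.06 and 5.23 CPM in Tw2+ cells and 0.603, 0.483 and 0.0785 CPM in Tw2- cells. The groups did not overlap, but the Tw2+ libraries themselves spread widely, with a log2 fold change of 2.86 ± 0.72 (SE; edgeR adjusted p = 0.0291) that passed only without Tw2+ replicate 3 when single libraries were left out, where it was 3.26. The other 5 of these fits gave between 2.21 and 3.22. With the fibroblast scaling it was 2.08 (edgeR adjusted p = 0.0534).

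Kcnj2 and Kcnj5 were lower. Kcnj2 (ENSMUSG00000041695, chr11:111066164-111076821, + strand) encodes the main inward rectifier of ventricular muscle and is also made by macrophages and endothelium. It had 4.06, 4.22 and 2.72 CPM in Tw2+ cells, against 9.04, 8.00 and 7.14 CPM in Tw2- cells, so each group was tight (log2 fold change -1.13 ± 0.29 SE, edgeR adjusted p = 0.0308). The Kcnj2 call held without the unnumbered Tw2- library (-1.26) and without Tw2+ replicate 3 (-1.24) and was lost without any of the other 4. Kcnj5 (ENSMUSG00000032034, chr9:32314707-32344350, - strand), a subunit of the atrial channel that acetylcholine opens, had 0.345, 0.325 and 0.403 CPM in Tw2+ cells, against 1.21, 0.752 and 1.80 CPM in Tw2- cells. Its log2 fold change of -1.77 ± 0.51 (SE; edgeR adjusted p = 0.0440) did not pass when any 1 library was left out, with values between -2.09 and -1.48, nor with DESeq2 (adjusted p = 0.0583) or limma-voom (adjusted p = 0.0706). Kcnj11 and Kcnj15 did not pass, at -1.58 and -0.27.

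Tandem-pore potassium channels (Kcnk) carry background current. Kcnk13 (ENSMUSG00000045404, chr12:99964499-100062682, + strand), known as the resting potassium channel of microglia, had 1.12, 1.06 and 1.71 CPM in Tw2+ cells, against 9.46, 8.05 and 7.30 CPM in Tw2- cells. Both groups were tight and far apart (log2 fold change -2.68 ± 0.33 SE, edgeR adjusted p = 0.000874), and the call held whichever library was left out. Kcnk6 (ENSMUSG00000046410, chr7:29221926-29232515, - strand), which carries potassium out of macrophages when they are stimulated, had 5.96, 8.86 and 4.83 CPM in Tw2+ cells, against 15.7, 27.9 and 13.5 CPM in Tw2- cells. Its log2 fold change was -1.54 ± 0.36 (SE; edgeR adjusted p = 0.0216), and the call held without Tw2- replicate 2, without the unnumbered Tw2- library or without Tw2+ replicate 3, and was lost without any of the other 3, with values between -1.82 and -1.20 over the 6 fits.

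The most abundant of this family per kb was Kcnk2, a channel opened by stretch and lipids, whose exons are overlapped by an antisense gene over 12.2% of their length. Kcnk2 had 33.6, 39.97 and 34.4 CPM in Tw2+ cells, against 15.8, 27.1 and 29.2 CPM in Tw2- cells. The Tw2+ libraries all lay above the Tw2- libraries, but the difference did not pass (log2 fold change 0.58, edgeR adjusted p = 0.136). Kcnk5, a channel opened by alkaline pH, had 17.4, 12.4 and 14.2 CPM in Tw2+ cells, against 12.4, 7.14 and 10.8 CPM in Tw2- cells (0.53, edgeR adjusted p = 0.196). Kcnk3 did not pass, at -1.44.

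Among potassium channels opened by calcium or sodium, Kcnn4 (ENSMUSG00000054342, chr7:24370263-24386690, + strand) was the channel gene with the most negative log2 fold change. It encodes the intermediate-conductance calcium-activated channel of lymphocytes, macrophages and red cells. Kcnn4 had 0, 2 and 1 counts in Tw2+ cells, against 167, 48 and 43 counts in Tw2- cells, which is 0, 0.163 and 0.101 CPM in Tw2+ cells and 10.1, 2.58 and 3.37 CPM in Tw2- cells. Over each group's summed counts it was 60.7-fold lower in Tw2+ cells, with a 95% interval of 20.5 to 296.0 that covers counting error only. The fitted log2 fold change was -5.78 ± 0.87 (SE; edgeR adjusted p = 0.00279). It passed whichever library was left out, with values from -6.59 without Tw2+ replicate 3 to -4.95 without Tw2- replicate 2.

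Kcnt2, a sodium-activated channel, was the most abundant of these per kb and had 88.2, 100.5 and 87.2 CPM in Tw2+ cells, against 60.3, 66.5 and 83.9 CPM in Tw2- cells. The lowest Tw2+ library stood just over the highest Tw2- library, and the difference did not pass (log2 fold change 0.39, edgeR adjusted p = 0.171). Kcnn3, a small-conductance channel of endothelium and atrial muscle, had 14.8, 18.6 and 12.7 CPM in Tw2+ cells, against 15.8, 16.2 and 24.4 CPM in Tw2- cells (-0.29, edgeR adjusted p = 0.446). Kcnn1 did not pass, at -0.11.

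The voltage-gated potassium channels were the largest family, with 40 genes in the table and 13 tested. Of these Kcnq1 passed, where 18.2% of all genes did. Kcnq1 (ENSMUSG00000009545, chr7:143106362-143427042, + strand) forms the slow delayed rectifier of heart muscle. It had 0.604, 0.487 and 0.101 CPM in Tw2+ cells, against 3.86, 2.09 and 0.942 CPM in Tw2- cells, all low, and the unnumbered library was the lowest of each group. Its log2 fold change of -2.48 ± 0.68 (SE; edgeR adjusted p = 0.0378) passed without the unnumbered Tw2- library (-2.89) and without Tw2+ replicate 3 (-2.64) and was lost without any of the other 4, with values between -2.88 and -1.93. It was also lost with limma-voom (adjusted p = 0.0551). The noncoding Kcnq1ot1, transcribed from the opposite strand inside Kcnq1, did not pass (0.04, edgeR adjusted p = 0.926).

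Kcna5, the ultrarapid delayed rectifier of atrial muscle, which macrophages also make, was the most abundant of the family per kb. Kcna5 had 3.195, 14.5 and 1.91 CPM in Tw2+ cells, against 31.3, 31.0 and 9.02 CPM in Tw2- cells. Tw2+ replicate 3 lay above the unnumbered Tw2- library, and the difference did not pass with all libraries (log2 fold change -1.85, edgeR adjusted p = 0.102), while without Tw2+ replicate 3 it was -3.21 (edgeR adjusted p = 0.00354). Kcna3, a channel of T cells and macrophages, had 2.07, 0.731 and 3.42 CPM in Tw2+ cells, against 10.2, 5.21 and 3.30 CPM in Tw2- cells, with 1 overlap between the groups (-1.60, edgeR adjusted p = 0.0837).

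Among TRP channels Trpm2, Trpv2 and Trpv4 were lower in Tw2+ cells. Of the other 6 channel genes of the Trpm, Trpv and Trpc families none passed edgeR's test, which called 18.2% of all genes. Trpm2 (ENSMUSG00000009292, chr10:77907722-77970563, - strand), a calcium-permeable channel of phagocytes that ADP-ribose opens under oxidative stress, had 0.259, 0.406 and 0.201 CPM in Tw2+ cells, against 13.1, 18.5 and 12.9 CPM in Tw2- cells. It was the channel gene with the smallest adjusted p, at a log2 fold change of -5.61 ± 0.39 (SE; edgeR adjusted p = 0.000127), and passed whichever library was left out. Trpm2 reached the count minimum through the Tw2- cells alone, with 3, 5 and 2 counts in Tw2+ cells, against 217, 344 and 165 counts in Tw2- cells. Trpv2 (ENSMUSG00000018507, chr11:62574486-62600515, + strand), which takes part in phagocytosis by macrophages, had 2.25, 2.52 and 0.906 CPM in Tw2+ cells, against 23.4, 17.1 and 12.2 CPM in Tw2- cells. Its log2 fold change was -3.20 ± 0.42 (SE; edgeR adjusted p = 0.00126), and it too passed whichever library was left out.

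Trpv4 (ENSMUSG00000014158, chr5:114622152-114658421, - strand), a channel opened by swelling, warmth and shear in endothelium and other cells, had 2.33, 7.31 and 1.21 CPM in Tw2+ cells, against 30.01, 31.2 and 13.03 CPM in Tw2- cells. Tw2+ replicate 3 was again the Tw2+ library nearest to the Tw2- cells. The log2 fold change of -2.76 ± 0.61 (SE; edgeR adjusted p = 0.0178) passed without the unnumbered library of either group and without Tw2+ replicate 3, and was lost without any of the other 3, over a range of -3.79 to -2.36. Trpm7, a magnesium- and calcium-permeable channel fused to a kinase, was the most abundant TRP channel per kb. Trpm7 had 226, 194 and 217 CPM in Tw2+ cells, against 216, 150 and 177 CPM in Tw2- cells, overlapping values (log2 fold change 0.23, 95% interval -0.22 to 0.68, edgeR adjusted p = 0.423).

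Trpm4, a calcium-activated cation channel, had 12.6, 21.3 and 12.6 CPM in Tw2+ cells, against 21.2, 23.7 and 20.2 CPM in Tw2- cells, where Tw2+ replicate 3 lay within the range of the Tw2- cells (-0.49, edgeR adjusted p = 0.208). Trpc1, a subunit of cation channels tied to receptors, had 34.8, 23.4 and 32.7 CPM in Tw2+ cells, against 17.1, 16 and 21.3 CPM in Tw2- cells. These groups did not overlap, and the difference did not pass edgeR's test (log2 fold change 0.74 ± 0.23 SE, edgeR adjusted p = 0.0567) but passed DESeq2's (adjusted p = 0.0231). Trpc4ap, which carries the prefix but encodes an associated protein and not a channel, had 120, 122 and 126 CPM in Tw2+ cells, against 110, 126 and 119 CPM in Tw2- cells (0.05, edgeR adjusted p = 0.847).

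Upstream sequence is printed for 4 of the genes with the largest decreases, those with a log2 fold change under -2 whose RefSeq start equals the gene start of the annotation used here. Each is the 250 bases before the start, from RefSeq on GRCm38.p6, 5′ to 3′ on the gene's strand, with capitals on a match to GAGGAA, the core that PU-box factors of myeloid cells bind, or to TTCCTC, its reverse complement. They lie at chr7:24370013-24370262 (Kcnn4, + strand), chr11:62574236-62574485 (Trpv2, + strand), chr5:114658422-114658671 (Trpv4, - strand) and chr12:99964249-99964498 (Kcnk13, + strand).
Kcnn4: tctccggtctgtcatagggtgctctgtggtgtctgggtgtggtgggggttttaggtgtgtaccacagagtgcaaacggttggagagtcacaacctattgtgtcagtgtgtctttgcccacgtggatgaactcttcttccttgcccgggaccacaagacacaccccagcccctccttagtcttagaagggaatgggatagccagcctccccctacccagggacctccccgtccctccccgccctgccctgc
Trpv2: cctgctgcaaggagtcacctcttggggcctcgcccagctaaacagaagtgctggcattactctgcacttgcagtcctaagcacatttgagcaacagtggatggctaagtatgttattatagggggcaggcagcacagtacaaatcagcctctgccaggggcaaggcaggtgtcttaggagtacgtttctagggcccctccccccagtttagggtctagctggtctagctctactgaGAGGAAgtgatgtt
Trpv4: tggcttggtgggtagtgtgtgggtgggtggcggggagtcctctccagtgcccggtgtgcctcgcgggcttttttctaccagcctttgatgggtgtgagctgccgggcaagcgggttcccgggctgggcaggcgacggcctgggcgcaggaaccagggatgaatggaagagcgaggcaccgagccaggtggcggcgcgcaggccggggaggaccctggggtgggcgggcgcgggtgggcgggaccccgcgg
Kcnk13: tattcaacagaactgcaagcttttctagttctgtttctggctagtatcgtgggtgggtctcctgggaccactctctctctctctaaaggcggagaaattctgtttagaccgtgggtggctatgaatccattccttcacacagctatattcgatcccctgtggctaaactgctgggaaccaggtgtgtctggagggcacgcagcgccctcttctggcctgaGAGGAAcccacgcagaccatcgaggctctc
Trpv2 and Kcnk13 hold 1 match each, and Kcnn4 and Trpv4 hold none. Of the 16 called genes, 13 had an entry, and 5 of these 13 held a match, namely Cacna1e, Kcne4, Kcnj2, Kcnk13 and Trpv2, where 23.2% of all 32851 windows of the same length did. Kcne4 is among them although it was higher in Tw2+ cells. A match is a run of letters and not a site.

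ATP-gated P2X receptors open to extracellular ATP. P2rx7 (ENSMUSG00000029468, chr5:122643911-122691432, + strand), which in macrophages leads to activation of the inflammasome, was the most abundant of them, at 2.86 CPM per kb in Tw2+ cells and 10.5 CPM per kb in Tw2- cells. It had 11.9, 18.5 and 20.7 CPM in Tw2+ cells, against 89.9, 64.6 and 32.9 CPM in Tw2- cells. All Tw2+ libraries lay under all Tw2- libraries, which spread widely (log2 fold change -1.87 ± 0.37 SE, edgeR adjusted p = 0.0115), and the call held whichever library was left out. Unlike Trpm2 and Kcnn4, P2rx7 kept more than 10 CPM in every Tw2+ library.

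P2rx4 (ENSMUSG00000029470, chr5:122707544-122729738, + strand), the neighbouring gene, had 11.2, 15.2 and 12.8 CPM in Tw2+ cells, against 28.4, 31.6 and 16.9 CPM in Tw2- cells. Its log2 fold change was -0.97 ± 0.28 (SE; edgeR adjusted p = 0.0425), which held without the unnumbered Tw2- library (-1.25) and without Tw2+ replicate 3 (-1.10) and was lost without any of the other 4, where it reached -0.85, and with limma-voom (adjusted p = 0.0550). P2rx6, with 13.9% of its exons overlapped by Slc7a4, did not pass (0.35, edgeR adjusted p = 0.525).

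**Figure D4:**
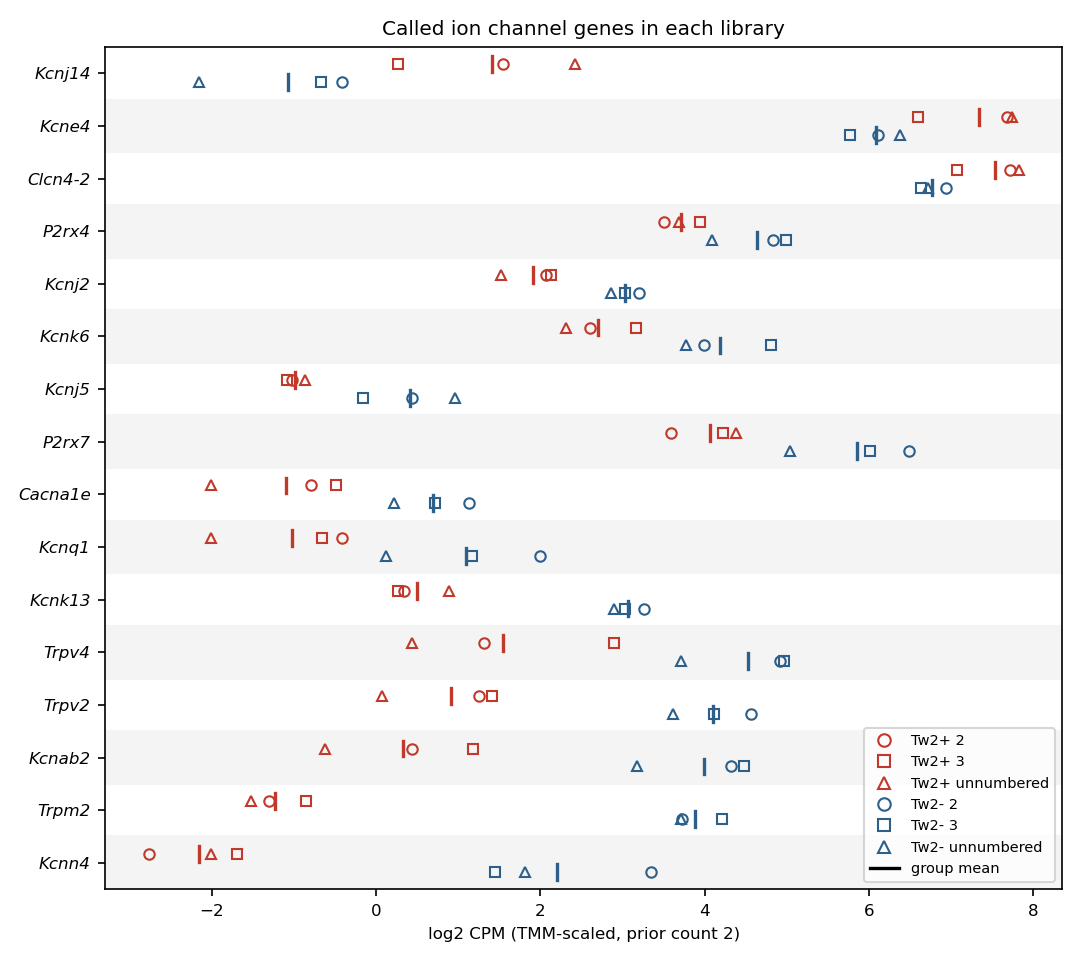
Log2 CPM (prior count 2) of each of the 16 called channel genes in every library, with a row per gene. Tw2+ libraries are drawn above Tw2- libraries in each row. The groups do not overlap in any row, which choosing genes by a small p favours. Tw2+ replicate 3 is the Tw2+ library with the highest value in 9 of 13 lower genes and the lowest in 3 of 3 higher ones.

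Replicate 3 of the Tw2+ cells and the unnumbered Tw2- library were the libraries nearest to the other group in most called genes. Tw2+ replicate 3 had the highest Tw2+ value in 9 of the 13 lower genes and the lowest in all 3 higher ones. The unnumbered Tw2- library had the lowest Tw2- value in 11 of the 13 lower genes. This order was not counted over all called genes. Of all genes tested, 18.2% were called with all 6 libraries and 42.2% without Tw2+ replicate 3. Without the unnumbered Tw2- library the share was 12.2%. The order is therefore not shown to be particular to channel genes. Tw2+ replicate 3 had the highest macrophage sum of the Tw2+ cells, 336 CPM, and the unnumbered Tw2- library the lowest of the Tw2- cells, 2772 CPM. This order also held for the endothelial, B cell and Schwann cell sums, but not for those of the other marker lists. The part of any of these in the channel values was not tested.

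Cacna1e was the calcium channel gene called, where 18.2% of all genes were called. Cacna1e (ENSMUSG00000004110, chr1:154390731-154884501, - strand), the alpha subunit of the R-type current, had 0.432, 0.569 and 0.101 CPM in Tw2+ cells, against 2.05, 1.503 and 1.02 CPM in Tw2- cells. The groups did not overlap (log2 fold change -2.0 ± 0.57 SE, edgeR adjusted p = 0.0421), but when single libraries were left out it passed only without Tw2+ replicate 3, at -2.44, over a range of -2.44 to -1.6. The most abundant alpha subunits per kb were Cacna1d, an L-type channel of pacemaker cells, and Cacna1g, a T-type channel. Cacna1d had 16.5, 17.3 and 18.5 CPM in Tw2+ cells, against 17.4, 15.8 and 18.3 CPM in Tw2- cells, so close that the 95% interval of its log2 fold change of 0.02 ran from -0.43 to 0.48. Cacna1g had 20.8, 14.95 and 10.7 CPM in Tw2+ cells, against 12.7, 9.99 and 11.8 CPM in Tw2- cells (0.43, edgeR adjusted p = 0.30). Cacna1c, the main L-type channel of ventricular muscle, did not pass, at 0.37, nor did Cacna1a at 0.20 and Cacna1h at -0.33.

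Of the 6 auxiliary calcium channel subunits tested, edgeR's test called 0, where it called 18.2% of all genes. In that test 2 had an unadjusted p under 0.05. The limma-voom test called 0 and DESeq2 called 1, Cacna2d1. Cacna2d1, which brings alpha subunits to the surface and also binds thrombospondins, had 66.8, 65.9 and 61.2 CPM in Tw2+ cells, against 40.2, 41.8 and 50.5 CPM in Tw2- cells. The libraries did not overlap, and each group was tight (log2 fold change 0.55 ± 0.18 SE, 95% interval 0.14 to 0.96, edgeR adjusted p = 0.0630). Cacng7, of the family that also traffics glutamate receptors, had 30.6, 28.1 and 27.0 CPM in Tw2+ cells, against 16.2, 20.1 and 23.8 CPM in Tw2- cells (0.51, edgeR adjusted p = 0.118). Cacnb3 had 26.5, 25.9 and 21.3 CPM in Tw2+ cells, against 18.4, 20.3 and 24.8 CPM in Tw2- cells (0.22, edgeR adjusted p = 0.485). Cacnb1, the skeletal muscle beta subunit, had 5.35, 7.07 and 4.73 CPM in Tw2+ cells, against 5.79, 6.87 and 8.63 CPM in Tw2- cells (-0.31, edgeR adjusted p = 0.472).

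None of the 7 sodium channel genes tested passed edgeR's test, which called 18.2% of all genes. The count was also 0 at an unadjusted p under 0.05, with DESeq2 and with limma-voom. Without Tw2+ replicate 3, Scn3a, a neuronal sodium channel, was called at a log2 fold change of -2.78 (edgeR adjusted p = 0.03). Scn7a had 369, 589 and 361 CPM in Tw2+ cells, against 346, 518 and 572 CPM in Tw2- cells, values that overlap throughout (log2 fold change -0.12, 95% interval -0.76 to 0.51, edgeR adjusted p = 0.777). Scn4a, the sodium channel of skeletal muscle, had 1.12, 0.325 and 9.36 CPM in Tw2+ cells, against 1.33, 1.23 and 2.04 CPM in Tw2- cells, where the unnumbered Tw2+ library alone lay above every Tw2- library (log2 fold change 1.22 ± 0.94 SE, edgeR adjusted p = 0.376). Scn3b, a beta subunit, had 2.07, 2.11 and 1.71 CPM in Tw2+ cells, against 1.93, 1.88 and 0.785 CPM in Tw2- cells (0.34, edgeR adjusted p = 0.578), and Scn4b was too low to test.

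The Clcn family holds chloride channels of the surface and chloride-proton exchangers of endosomes and lysosomes. Clcn4-2 (ENSMUSG00000000605, current symbol Clcn4, chr7:7282309-7300851, - strand), an endosomal exchanger, had 210, 135 and 226 CPM in Tw2+ cells, against 123, 99.0 and 105 CPM in Tw2- cells. Tw2+ replicate 3 stood only a little over the highest Tw2- library. The log2 fold change was 0.80 ± 0.23 (SE; edgeR adjusted p = 0.0444), with 22.2 CPM per kb in Tw2+ cells and 12.7 CPM per kb in Tw2- cells. The call held only without Tw2+ replicate 3 (1.00) when single libraries were left out, and was lost without each of the other 5, where the value reached 0.66. It was also lost with limma-voom (0.78, adjusted p = 0.0523), with relative log expression scaling (0.80, edgeR adjusted p = 0.0527), with library totals (0.50, edgeR adjusted p = 0.0961) and with the fibroblast scaling (0.06, edgeR adjusted p = 0.840). An antisense gene, Gm45631, overlaps 11.5% of its exons, and whether the counting used strand was not stated in the sources used here.

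Clcn7, the lysosomal exchanger, had 43.8, 53.8 and 52.2 CPM in Tw2+ cells, against 63.3, 56.9 and 63.0 CPM in Tw2- cells, without overlap and without a call (log2 fold change -0.29, edgeR adjusted p = 0.262). The other 4 Clcn genes did not pass either, from Clcn3 at -0.61 (edgeR adjusted p = 0.0918) to Clcn2 at 0.65 (edgeR adjusted p = 0.0856).

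Piezo channels open when the membrane is stretched. Piezo1 had 280, 180 and 414 CPM in Tw2+ cells, against 286, 141 and 131 CPM in Tw2- cells. The Tw2+ values spread widely and Tw2- replicate 2 lay among them, and a log2 fold change of 0.65 ± 0.38 (SE) did not pass (95% interval -0.21 to 1.51, edgeR adjusted p = 0.243). Ctu2, on the opposite strand, overlaps 24.6% of the Piezo1 exons, which leaves its counts uncertain where strand was not used. Piezo2 had 6.48, 5.69 and 3.12 CPM in Tw2+ cells, against 7.65, 3.44 and 4.86 CPM in Tw2- cells (-0.06, edgeR adjusted p = 0.932).

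Directions of genes with small changes depend on the scaling. The median log2 fold change of all genes moved by -0.28 with library totals and by -0.69 with the fibroblast scaling, and that of the channel genes was then -0.42 and -0.85, so 9 channel genes remained above 0 with the fibroblast scaling and 66 were under it. All calls among channel genes were then lower, 29 of them, where 38% of all genes tested were called lower. None of the 16 called genes changed direction in any scaling tried, while 24 channel genes did, among them Piezo1, Trpm7, Cacna2d1, Cacnb3, Cacng7, Kcnt2, Kcnk2, Kcnk5, Cacna1g and Trpc4ap.

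**Figure D5:**
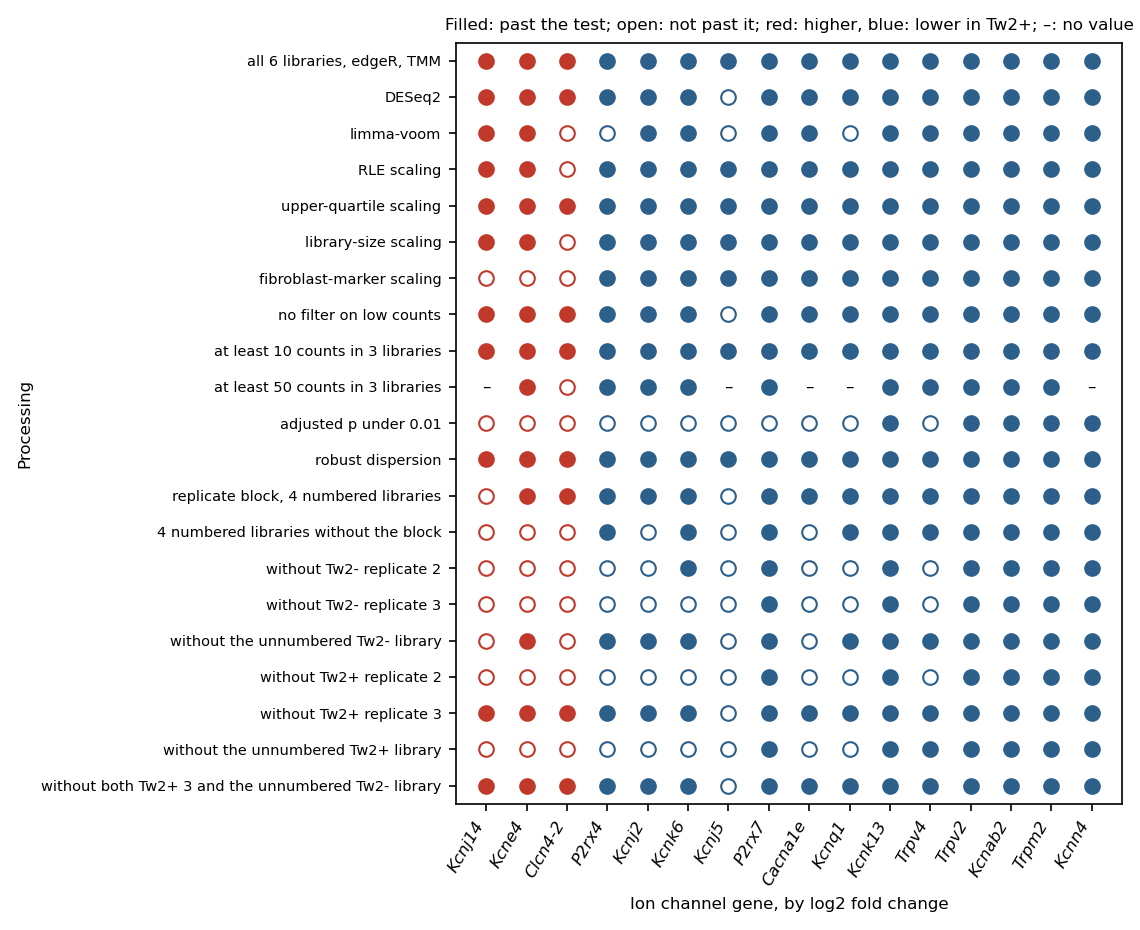
Each of the 16 channel genes called with all 6 libraries (columns) under each setting tried (rows). Filled circles passed the test, open circles did not, and a dash marks no value. Red is higher and blue is lower in Tw2+ cells. With the fibroblast scaling Kcnj14, Kcne4 and Clcn4-2 are open, and without Tw2+ replicate 3 Kcnj5 alone is open.

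A second list, of 71 genes for channels and channel regulators outside these families, was set beside them. Of its 40 tested genes, 8 were called (20%, against 18.2% of all genes), 1 higher and 7 lower, with a median log2 fold change of -0.31. Without Tw2+ replicate 3 there were 6 higher and 11 lower, and without any other library 0 higher and between 1 and 4 lower.

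Of 9 tested genes for calcium release and store-operated entry, Ryr2, Orai1 and Itpr2 were lower, where 10.8% of all genes were. Orai1, the pore of store-operated calcium entry, had 6.13, 7.56 and 7.75 CPM in Tw2+ cells, against 15.7, 17.8 and 11.1 CPM in Tw2- cells (log2 fold change -1.06 ± 0.27 SE, edgeR adjusted p = 0.0294). Stim1, the sensor that opens it, had 115, 119 and 87.4 CPM in Tw2+ cells, against 89.4, 87.8 and 90.9 CPM in Tw2- cells and did not pass (0.26, edgeR adjusted p = 0.327). Ryr2, the calcium release channel of heart muscle and itself on the cardiomyocyte marker list, had 7.25, 6.01 and 2.31 CPM in Tw2+ cells, against 24.2, 10.4 and 24.7 CPM in Tw2- cells (-1.92 ± 0.47 SE, edgeR adjusted p = 0.0258).

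Of the inositol trisphosphate receptors, Itpr2 had 56.0, 67.9 and 50.03 CPM in Tw2+ cells, against 94.1, 87.8 and 84.7 CPM in Tw2- cells (log2 fold change -0.62 ± 0.18 SE, edgeR adjusted p = 0.0486), while Itpr1 (0.11, edgeR adjusted p = 0.682) and Itpr3 (-0.56, edgeR adjusted p = 0.162) did not pass. Lrrc8d, a subunit of the volume-regulated anion channel, had 26.8, 33.3 and 21.2 CPM in Tw2+ cells, against 80.1, 65.8 and 62.9 CPM in Tw2- cells. It was the 1 gene of this list called whichever library was left out (log2 fold change -1.36 ± 0.22 SE, edgeR adjusted p = 0.00440). Hvcn1, the proton channel of phagocytes, had 4.06, 5.52 and 2.72 CPM in Tw2+ cells, against 14.2, 13.2 and 9.57 CPM in Tw2- cells (-1.58, edgeR adjusted p = 0.0135), with 44.2% of its exons under Tctn1 on the opposite strand.

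Tpcn2, a cation channel of lysosomes, had 13.9, 13.6 and 14.3 CPM in Tw2+ cells, against 25.1, 25.9 and 22.8 CPM in Tw2- cells (log2 fold change -0.82, edgeR adjusted p = 0.0236), and Akap9, a scaffold that anchors kinase to Kcnq1, was lower by less (-0.62, edgeR adjusted p = 0.0437). Mcoln2, a lysosomal cation channel, was the gene called higher, with 14.4, 4.31 and 14.4 CPM in Tw2+ cells, against 4.58, 1.61 and 3.53 CPM in Tw2- cells. Its Tw2+ replicate 3 lay within the range of the Tw2- cells (log2 fold change 1.77 ± 0.53 SE, edgeR adjusted p = 0.0489), and when single libraries were left out it passed only without that one, at 2.16. Abcc9, the sulfonylurea receptor of vascular potassium channels and pericytes, had 37.6, 56.0 and 23.4 CPM in Tw2+ cells, against 134, 75.1 and 42.5 CPM in Tw2- cells, with overlap and no call (-1.11, edgeR adjusted p = 0.102). Of 5 tested genes for calcium-activated chloride channels and scramblases, edgeR's test called 0, where it called 18.2% of all genes. At an unadjusted p under 0.05 there was 1, and DESeq2 and limma-voom called 0. When single libraries were left out, Orai1 and Tpcn2 passed only without the unnumbered Tw2- library or Tw2+ replicate 3, Itpr2 and Akap9 only without Tw2+ replicate 3, and Ryr2 and Hvcn1 in 3 of 6 fits each. Itpr2 was also lost with limma-voom (adjusted p = 0.0513) and with relative log expression scaling (edgeR adjusted p = 0.0553). It was lost without a filter on low counts too (edgeR adjusted p = 0.0581). Mcoln2 was lost with limma-voom (adjusted p = 0.0740) and with at least 50 counts in 3 libraries (edgeR adjusted p = 0.0595). Every scaling other than TMM lost it as well (edgeR adjusted p between 0.0574 and 0.144).

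The genes whose log2 CPM over the 6 libraries was most like that of the called channel genes with the highest and lowest fold change were found by Pearson's r, as a description over libraries that share group and depth. For Kcnj14 they were 2010015L04Rik (r = 0.995), Map2k7 (r = 0.994) and Dgcr2 (r = 0.993), with log2 fold changes of 0.52, 0.25 and 0.38. For Kcnn4 they were Blnk (r = 0.994), Ildr1 (r = 0.993) and Tnfsf9 (r = 0.992), with log2 fold changes of -1.40, -4.37 and -1.60.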

How the data were processed

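Whole-transcriptome RNA of sorted cardiac cells was sequenced in 3 Tw2+ and 3 Tw2- libraries. The deposited table holds read counts per gene for the 6 libraries, with no normalization in the values. Per the submitters' processing notes, the tools were TopHat2 2.0.0 and DESeq2 1.6.3 and the build GRCm38 (mm10), with no roles stated; the read counter, its use of strand and its handling of reads with several matches were not stated there. 1 column of each group has no replicate number; there were 0 other per-sample columns. No sequencing batch was given, so values within batches could not be formed.

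Symbols were matched to GENCODE M21 on GRCm38 for positions, types and exon lengths (23685 of 24062 symbols, 98.4%, and all 76 channel genes). Genes were kept by edgeR's filterByExpr with a minimum count of 10, which left 13180, and tested with edgeR 4.0.16 (R 4.3.3) by its quasi-likelihood test on all 6 libraries with TMM scaling, at a Benjamini-Hochberg adjusted p under 0.05 over all of them. Because the files hold no record of separate hearts beyond the term biological replicates, p-values measure the spread between these libraries. No 2 libraries agreed within sampling noise. Levels per kb divide CPM by the length of all exons of a gene merged.

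Values in every library are given for each called channel gene and for the 2 genes of each family with the highest level per kb; in the second list they are given for called genes and for Stim1, Orai1, Itpr1, Itpr2, Itpr3, Ryr2 and Abcc9, in part by fold change only. A few genes that this rule names are not reported here. Scn4a, Cacna1c and Scn3a were singled out after their values were seen. The channel genes, the second list and the markers were chosen with earlier results of these data known. Alternatives were DESeq2 1.42.0, limma-voom (limma 3.58.1), other scalings, other count minimums, an adjusted p under 0.01, robust dispersion, a replicate block, and leaving out libraries.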

Additional observations from a re-analysis of the deposited data

How the results depend on the processing

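With all 6 libraries 3 channel genes were higher and 13 lower, and 1 higher and 7 lower in the second list. When each library was left out in turn, the channel genes called numbered between 0 and 6 higher and between 6 and 19 lower, and those of the second list between 0 and 6 higher and between 1 and 11 lower. DESeq2 gave 6 and 15 channel genes and 4 and 8 of the second list, against 11.9% and 13.9% of all genes. At an adjusted p under 0.01 the counts were 0 and 5, and 0 and 1 in the second list, where 0.683% of all genes were higher and 5.32% lower. Of genes with at least 50 counts in 3 libraries, fewer genes to test, 1 and 9 were called and 0 and 7 of the second list, against 6.32% and 9.05% of all genes. With the fibroblast scaling they were 0 and 29, and 0 and 20 in the second list, against 1.05% and 38% of all genes. Without both Tw2+ replicate 3 and the unnumbered Tw2- library they were 6 and 20, and 5 and 13 in the second list, against 16.8% and 22.6% of all genes. Without a filter on low counts 2 of the second list were higher, against 6.88% of all genes. With limma-voom and with the relative log expression, upper-quartile and library-total scalings 0 were. The shares of all genes called higher were then 5.65%, 6.3%, 6.15% and 3.07%.

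The sign of small changes depended on the scaling. With the fibroblast markers as scale, log2 fold changes turned to -0.28 for Cacna1g, -0.13 for Cacna2d1, -0.46 for Cacnb3, -0.16 for Cacng7, -0.28 for Kcnt2, -0.071 for Kcnk2, -0.19 for Kcnk5, -0.14 for Piezo1, -0.65 for Trpc4ap, -0.49 for Trpm7, -0.58 for Itpr1 and -0.43 for Stim1. With library totals they turned to -0.056 for Cacnb3, -0.052 for Trpm7 and -0.008 for Stim1. These scalings moved the median of all genes by -0.69 and -0.28, so small positive values turn by construction.

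The replicate numbers were shared by 2 pairs of libraries. Over all 6 libraries, deviations from the group means correlated at 0.2 for replicate 2, 0.56 for replicate 3 and 0.24 for the unnumbered libraries. Pairs of unlike labels lay between -0.42 and 0.12. Within the 4 numbered libraries alone the correlation was 0.43, a single value for both pairs by construction. The main fit used no pairing, and 2 pairs are too few to show that the numbers pair the samples. With a replicate block on these 4 libraries, 6 channel genes were higher and 16 lower and 2 and 10 of the second list, against 0 and 11 and 0 and 3 in the same libraries without the block; 25.1% of all genes (3302) were called with the block and 9.35% (1232) without. Kcnj14 was at 1.65 (edgeR adjusted p = 0.0501) with the block and 1.74 (edgeR adjusted p = 0.140) without it, and Kcnj5 at -1.55 (edgeR adjusted p = 0.110) with it; neither passed. Kcnn3 turned to 0.004 with the block and 0.015 without it.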
